A study of Mus musculus with 8 samples.

Results

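The olfactory receptor genes of the large cluster on chromosome 2 were examined in mouse liver DNA. Members were the protein-coding genes in a stretch of 5.6 Mb that starts at 85 Mb on chromosome 2 (mm10), with a RefSeq symbol of the olfactory receptor family (Olfr). Methylation was averaged over each gene with 1 kb on either side, here called its span, and a span needed at least 6 measured cytosines. All 222 genes of the rule met that minimum, among 14715 protein-coding gene spans tested in all.

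Olfactory receptors are G protein-coupled receptors that bind odorants on sensory neurons of the nose. Each neuron expresses a single allele of a single receptor gene, while the other receptor genes are kept silent in compacted chromatin. Their coding sequence usually lies in a single exon, and most have few CpG dinucleotides near the start. Most of them are not known to have a role in liver.

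Whole-genome bisulfite sequencing had been done on livers of male C57BL/6J mice of wild-type genotype, bought at 8 weeks and fed for 28 weeks. There were 4 libraries titled NASH (nonalcoholic steatohepatitis), from the diet high in fat, cholesterol and fructose, and 4 titled WT, from the normal diet (ND). The labels also carry a treatment entry, which gives NASH for the samples titled WT and the reverse. Titles and column names were followed, and every direction below would turn round if that entry were right. No label says that each library came from its own mouse, so p-values measure only the spread between these libraries, which may be technical.

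Each value is the percent methylation of a cytosine in a CpG, with both strands listed separately. The files give no read counts, so the depth behind a value is unknown. Every CpG that could be checked had a row in the table, and 12.3% to 13.1% of rows per library were at exactly 0, so a 0 can stand for an unmethylated or for an unread cytosine. Values after ± are SDs over n = 4 libraries, and each difference is the NASH mean less the ND mean, in percentage points.

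Windows around the annotated start of 4 members are shown first, because their spans were the ones with a called difference. Each runs from 250 bases before to 50 bases after the start in RefSeq (GRCm38.p6), 5′ to 3′ along the gene, with CpGs in capitals. In all 4 the start codon begins at base 251.
Olfr1013 (+ strand, chr2:85769553-85769852): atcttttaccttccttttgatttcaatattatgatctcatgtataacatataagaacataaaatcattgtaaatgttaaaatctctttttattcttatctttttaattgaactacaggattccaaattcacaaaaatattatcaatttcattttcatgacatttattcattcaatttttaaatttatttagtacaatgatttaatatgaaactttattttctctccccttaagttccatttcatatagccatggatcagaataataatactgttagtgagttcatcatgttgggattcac
Olfr1132 (- strand, chr2:87635696-87635995): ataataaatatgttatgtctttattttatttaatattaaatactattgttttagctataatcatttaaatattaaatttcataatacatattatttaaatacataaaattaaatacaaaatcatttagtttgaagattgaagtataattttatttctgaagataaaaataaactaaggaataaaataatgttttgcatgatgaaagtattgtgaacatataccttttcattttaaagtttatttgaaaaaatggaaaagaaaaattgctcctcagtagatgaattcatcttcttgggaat
Olfr1155 (- strand, chr2:87943577-87943876): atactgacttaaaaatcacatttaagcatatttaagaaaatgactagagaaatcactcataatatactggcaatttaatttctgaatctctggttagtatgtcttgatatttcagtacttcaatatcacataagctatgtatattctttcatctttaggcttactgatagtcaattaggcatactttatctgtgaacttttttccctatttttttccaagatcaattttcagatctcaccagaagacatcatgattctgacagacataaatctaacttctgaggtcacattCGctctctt
Olfr1160 (- strand, chr2:88006727-88007026): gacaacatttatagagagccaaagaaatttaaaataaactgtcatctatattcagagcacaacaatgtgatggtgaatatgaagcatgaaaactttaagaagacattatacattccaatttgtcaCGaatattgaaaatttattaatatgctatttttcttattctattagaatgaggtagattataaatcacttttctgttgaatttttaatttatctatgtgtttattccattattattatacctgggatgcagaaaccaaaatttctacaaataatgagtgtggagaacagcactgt
The windows of Olfr1013 and Olfr1132 hold no CpG. That of Olfr1155 holds 1, which lies 42 bases into the gene and was at 66.9% in ND and 65.7% in NASH. That of Olfr1160 holds 1, which lies at position -125, counted back from the start, and was at 86.8% in ND and 82.4% in NASH.

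Such windows were typical of the cluster. RefSeq windows were matched for 186 of the 222 members. In 130 of these the start codon followed directly on the 250 bases, so the annotated start was that of the coding sequence. Bases before such a start, here and below, are counted from the start codon and may not hold the promoter. The comparison with all genes is thus one of annotated starts, not of promoters. The median member window held 1 CpG, where the median over 27025 genes was 7. No CpG was found in 67 member windows (36.0%), compared with 5.78% of all windows. The median GC content was 32% in members and 52.7% over all genes. Both strands were searched for CCCNNGGG, the core of the motif bound by EBF proteins, and for TAATTA, a motif of homeodomain proteins; the motifs share no overlap in letters. CCCNNGGG was in 4 member windows (2.15%, against 13.5% of all windows), and TAATTA was in 46 (24.7%, against 5.31%). CCCNNGGG fixes only C and G, TAATTA holds only A and T, and the shares were not adjusted for GC content. The contrast between members and all windows cannot be told apart from their difference in GC content. These are matches of letters and show no binding.

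A further window is shown because the same 300 bases stand before 2 members, Olfr1506 (chr2:90217395-90224471, - strand) and Olfr1565 (chr2:90322222-90329298, + strand), each 7077 bases long. The first 250 bases are given, with their 4 CpGs in capitals.
Olfr1506 and Olfr1565: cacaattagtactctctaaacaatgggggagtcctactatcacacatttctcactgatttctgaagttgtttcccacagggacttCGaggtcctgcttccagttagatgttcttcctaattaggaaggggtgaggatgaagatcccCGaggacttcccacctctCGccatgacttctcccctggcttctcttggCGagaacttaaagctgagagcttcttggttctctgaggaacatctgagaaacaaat
These CpGs were at 0 at both genes in all 8 libraries, apart from a level of 50% at positions -104 and -86 of Olfr1506 in ND library 3. Reads from a sequence present in identical copies cannot be assigned to either, so the values in this window are uncertain. Whether the genes are alike beyond it was not examined. Among members with a window, 48 shared at least 1 run of 30 bases with another gene's window, and 6 shared over 50% of such runs, which were the pairs Olfr1506 and Olfr1565, Olfr1168 and Olfr1173, and Olfr1057 and Olfr1062.

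In ND libraries most members had a high mean level of methylation. The median span was at 77.8%, and the middle 90% of members lay between 62.2% and 87.4%. There were 183 members at 70% or more, of which 78 were at 80% or more. A further 32 lay between 60% and 70%, and 7 were under 60%. The members were CpG-poor, with a median of 7.96 rows per kb and 26 rows per span, against 24.8 per kb and 574 per span over all genes.

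The median over all genes depended on how zeros were treated, and the median over members hardly did. As deposited, the ND median over all 14715 spans was 67.2%, below that of the members. It was 75.2% over 478 olfactory receptor genes elsewhere in the analysed chromosomes, 71.7% and 72.6% in the 2 other clusters of chromosome 2 (27 and 37 genes), and 74.3% over 131 vomeronasal, trace amine and taste receptor genes. With rows at 0 in all 8 libraries left out, the medians were 77.8% for members and 75% for all spans. With every zero left out the order turned, at 78.2% for members and 82.4% for all spans.

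The mean over the member spans was 76.3, 74.7, 77.7 and 76.7% in ND libraries 1 to 4. It was 74.3, 74.6, 76.6 and 74.4% in NASH libraries 1 to 4. The groups overlapped, with NASH library 3 above ND library 2. The means were 76.4% ± 1.25 and 74.98% ± 1.11, a difference of -1.38 points, which is close to the spread between libraries. Over all spans the means were 61.3% ± 0.325 and 61.2% ± 0.424, a difference of -0.0969. No test was made of a mean over members, since they were chosen with results of these data known.

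**Figure D1:**
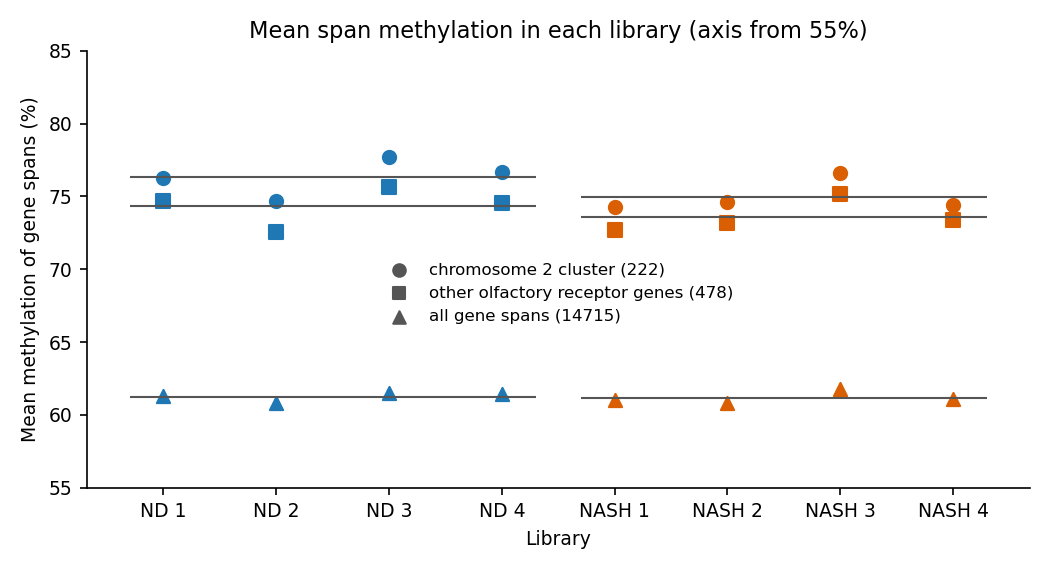
Mean methylation (%, axis from 55%) in each of the 8 libraries for the chromosome 2 cluster (circles, 222 genes), other olfactory receptor genes (squares, 478) and all gene spans (triangles, 14715), with lines at the group means. The cluster lies between 74.3% and 77.7% in every library, above all gene spans, and the ND and NASH circles overlap.

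Members differed from each other by more than libraries did. The SD of the ND level between members was 7.37 points over the 220 members not mostly at 0, and the median SD of a member between ND libraries was 2.64. The ND and NASH levels of these 220 genes followed each other (Pearson's r = 0.956, Spearman's rho = 0.947, a description across genes of the same libraries, which are not independent replicates). Members with more rows per kb had higher levels (rho = 0.366), and neighbours along the chromosome resembled each other (rho = 0.242). These correlations share libraries and an unknown depth.

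High levels were most frequent near the proximal end of the cluster. In the first Mb from the first member, 19 of 49 genes were at 85% or more in ND, out of 30 such genes in the whole cluster, and the median was 83.3%. In the 4 Mb that followed, the medians per Mb lay between 76.3% and 77.7%. The highest member was Olfr1065 (chr2:86445013-86446004) at 91.0% ± 1.27. It was followed by Olfr1019 (chr2:85840857-85841789), known as a receptor for a fox odour component, at 90.63% ± 0.757, Olfr1013 at 89.9% ± 1.79 and Olfr1184 (chr2:88486734-88487669) at 89.7% ± 2.77. Genes in adjacent ranks among these 4 differed by less than the SD of either gene between libraries. Olfr73, the eugenol receptor gene, was at 85.9% ± 1.09 in ND and 85.1% ± 1.0 in NASH; it was named for its known ligand after its values had been seen.

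**Figure D2:**
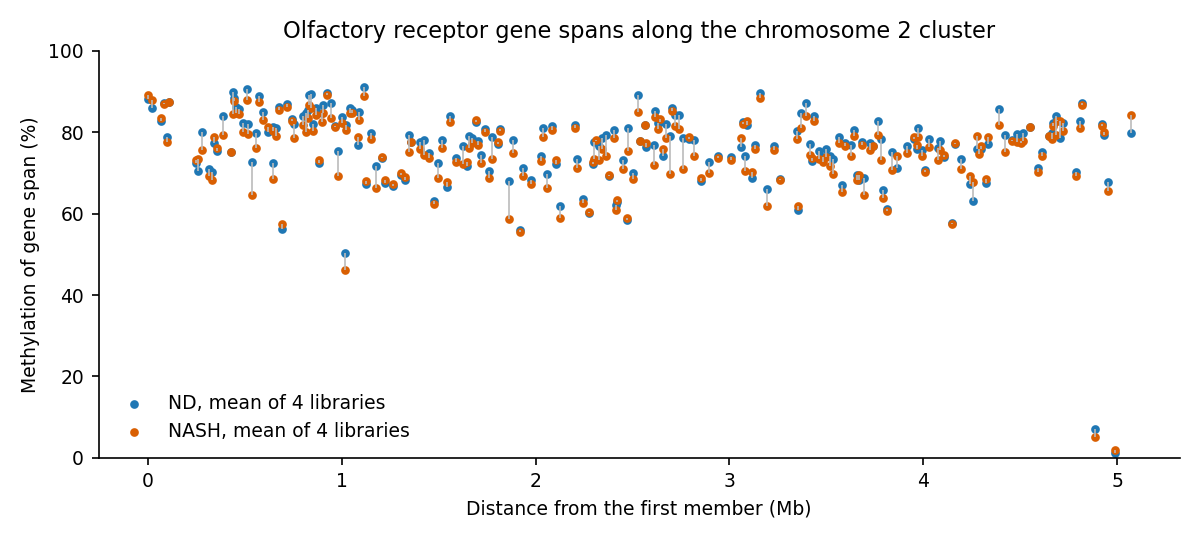
Mean methylation (%) of each of the 222 member spans in ND (blue) and NASH (orange) libraries, n = 4 each, against distance in Mb from the first member; grey lines join the same gene. Most genes lie between 60% and 90%, and 19 of the 30 genes at 85% or more in ND lie in the first Mb. Olfr1506 and Olfr1565 lie near 0 towards the distal end. Most of their rows were at 0 in all libraries and may be unread.

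Receptor families, taken from the MOR names among RefSeq's synonyms, which group receptors by sequence similarity, were known for 215 members in 47 families. Members of many families lie near each other, so family and position share their signal. Some families are spread out, such as MOR227, which runs from 0.716 to 4.95 Mb from the first member. The 9 genes of MOR185 had ND levels from 82.1% to 89.5% with a median of 85.5%, and the 6 of MOR203 and the 6 of MOR213 had medians of 86.6% and 85.9%. The 17 genes of MOR233 had a median of 76.5%, the 14 of MOR174, the family of the eugenol receptor, 78.8%, and the 14 of MOR231 76.6%. The 15 genes of MOR264 were lower, with a median of 70% and a range from 56.1% to 81.4%.

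The lowest members were Olfr1565 at 1.16% ± 2.31 and Olfr1506 at 7.14% ± 4.50, the pair with identical windows. Of their 108 rows each, 99 and 81 were at 0 in all 8 libraries. Without those rows the ND means were 13.9% on 9 rows and 28.5% on 27 rows. Such zeros can stand for unread cytosines, so the low levels of this pair may reflect missing reads or low methylation. Only 5 of the 222 members had any row at 0 in all libraries; the others were Olfr1033 (22 of 244 rows), Olfr1055 (18 of 98) and Olfr1223 (8 of 78). The 100 kb windows around this pair also had many such rows, with 33.8%, 30.4% and 59.4% in the 3 windows from 90.1 to 90.4 Mb, whose ND means were 40.8%, 42.1% and 23.2%.

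Next in rank was Olfr1055 (chr2:86346724-86347764), with 32.2 rows per kb the most CpG-dense of the named members. Its ND libraries were at 44.7, 50.1, 65.3 and 41.6%, and its NASH libraries at 45.0, 47.2, 50.4 and 41.7%. ND library 3 stood above the other 7, and the mean of 50.4% ± 10.5 had the widest SD of any member in ND. Olfr1115 (chr2:87251840-87252941) followed at 56.1% ± 5.39. Olfr1033 (chr2:86020640-86044808), the member with the most rows, was at 56.2% ± 1.22; its low-coordinate end was at 8.42% ± 2.07 on 58 rows and its other end at 84.0% ± 4.37. RefSeq as used here gives no strand for it.

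Within members, the gene itself was more methylated than its surroundings. Among 123 members under 1000 bases with a known strand, ND levels were 74.4% ± 1.35 in the 1000 bases before the start, 81.3% ± 0.977 in the gene and 76.9% ± 1.18 in the 1000 bases after the end. The NASH levels were 72.6% ± 1.30, 79.8% ± 1.02 and 75.6% ± 1.07, in the same order. The gene was higher than both flanks in each of the 8 libraries. The ND profile was uneven before the start, at 71.5, 78.2, 72.8 and 74.6% in successive bins of 250 bases. It was 79.7% in the first 250 bases of the gene and highest, at 83.2%, between 250 and 500 bases into it. Over 189 members with both parts measured, the gene was above its flanks in 124.

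**Figure D3:**
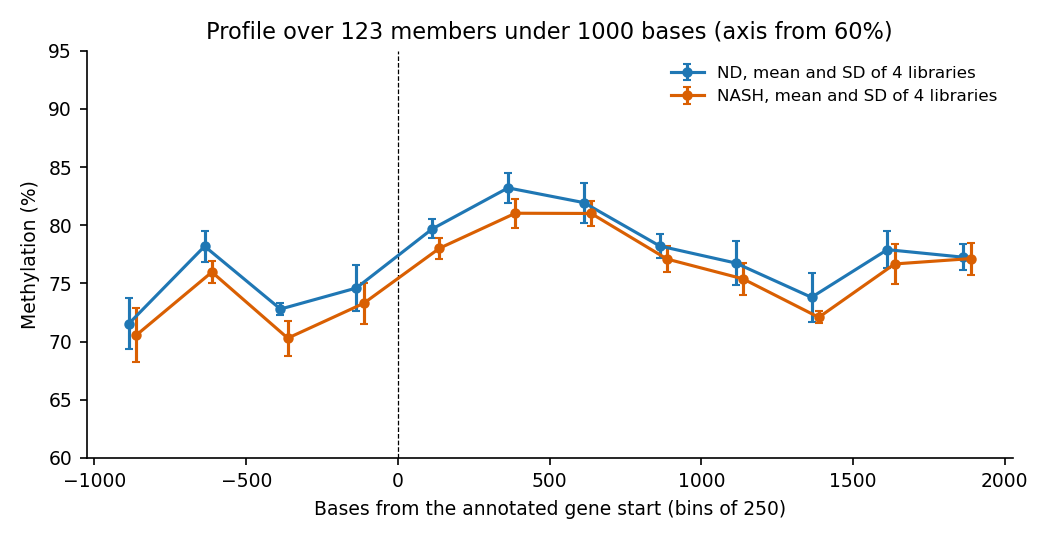
Methylation (%, axis from 60%) in bins of 250 bases from the annotated start of 123 members under 1000 bases, in ND (blue) and NASH (orange); points are means and bars SDs over 4 libraries. Both groups peak inside the gene, at 83.2% and 81.0% between 250 and 500 bases.

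Rows inside member spans were at 74.1% ± 1.11 in ND, rows between them at 68.4% ± 0.914 and rows of chromosome 2 outside the stretch at 71.4% ± 0.494. Member rows were higher than both in 8 of 8 libraries as deposited. Rows at 0 in all libraries made up 3.41% of rows in members, 7.86% of those between members and 6.89% of the rest of chromosome 2. Without such rows the gaps in ND fell to 2.44 and 0.0503 points, and with every zero left out they turned to -1.10 and -3.99. The place of the members above their surroundings therefore rests on how zeros are read.

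The comparison of NASH with ND asked which receptor genes differed in methylation between the diets. Of all 14715 spans, 8.50% were called at a limma adjusted p under 0.05, 5.58% higher and 2.92% lower in NASH. Among the 222 members 4 were called (1.80%), all of them lower in NASH. In the 888 spans with fewer than 50 rows, a class that holds 203 of the members, 2.25% of all spans and 1.97% of the members were called. The members' share was thus near the background for spans of their size.

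Small decreases were common in the cluster. The difference was below 0 in 164 of 222 members (73.9%), against 58.6% of all spans, and its median was -1.24 points, against -0.257. In spans with fewer than 50 rows the shares were 73.4% for members and 67.0% for all, and the medians -1.26 and -0.966. The difference was within 2 points in 138 members and over 5 points in 11. The shares below 0 were 63.0% and 78.4% in the 2 other clusters of chromosome 2, and 63.2% in the olfactory receptor genes elsewhere. These shares share the same 8 libraries and were not tested.

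**Figure D4:**
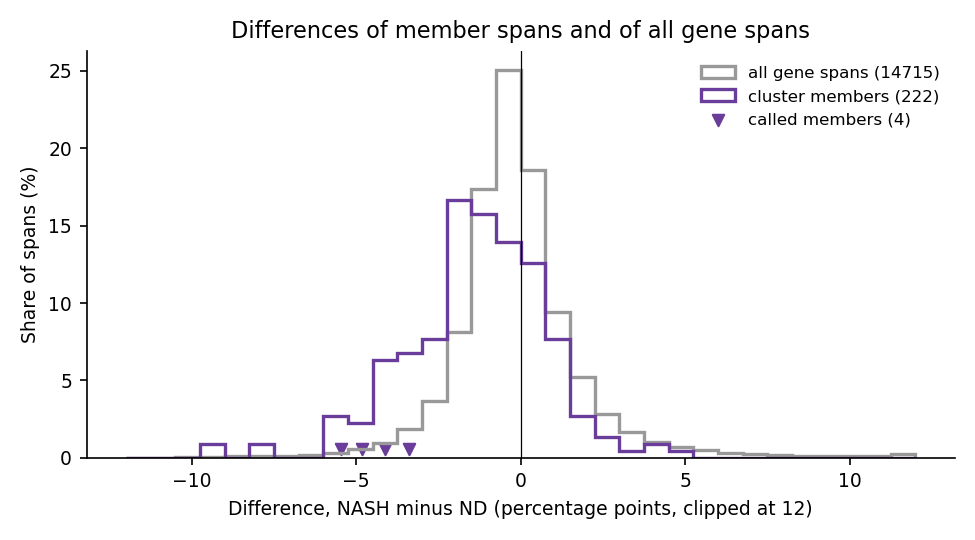
Share of spans (%) by NASH minus ND difference (percentage points, clipped at 12) for all 14715 gene spans (grey) and the 222 members (purple), with triangles at the 4 called members. The members lie to the left of all spans, with medians of -1.24 and -0.257.

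The 4 NASH and 4 ND values of a gene were apart at 7 members, all lower in NASH (background 7.77%), and at no member in the other direction (background 9.40%). An unadjusted limma p under 0.05 was reached by 27 members, 26 of them lower. These were 12.2% of the members, against 24.0% of all spans, and the lower ones 11.7%, against 12.2%. The exception was Olfr1246, given below.

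Olfr1132 (chr2:87634819-87635745, 34 rows), a receptor gene of family MOR177, fell. Its ND libraries were at 79.5, 76.7, 76.1 and 78.1% and its NASH libraries at 73.7, 74.5, 73.3 and 72.5%. All NASH libraries were below all ND libraries. The difference was -4.14 points (SE 0.807, limma adjusted p = 0.0206). Of its 17 CpGs 11 were lower, and 3 of them, at positions -738, -741 and -933 before the start, went from 94.1, 90.9 and 69.3% to 70.8, 71.9 and 48.5%. Without the 1 kb extension the gene differed by -0.474 points (limma adjusted p = 0.927).

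Olfr1160 (chr2:88005817-88006776, 20 rows), of family MOR173, also fell. ND libraries were at 81.3, 83.6, 81.9 and 81.4% and NASH libraries at 78.6, 79.5, 77.3 and 79.2%. The groups did not overlap, and 7 of its 10 CpGs were lower in NASH. The CpGs inside the gene differed by -2.95 and 1.57 points, and all others lay in the flanks. The difference of -3.40 points (SE 0.694, limma adjusted p = 0.0249) became -2.37 when doubtful zeros, those among methylated neighbours, were left out (limma adjusted p = 0.241).

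Olfr1013 (chr2:85769803-85770720, 22 rows), of family MOR213 and among the 4 most methylated members, had the largest called decrease. ND libraries were at 87.2, 91.1, 90.7 and 90.5% and NASH libraries at 82.8, 83.5, 84.3 and 87.1%. The groups did not overlap, but ND library 1 and NASH library 4 lay side by side. The difference was -5.46 points (SE 1.18, limma adjusted p = 0.0303), and all 11 CpGs were lower in NASH. At the gene without its extension it was -4.69 (limma adjusted p = 0.304). Olfr1013 was called in 2 of 8 fits with a library left out.

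Olfr1155 (chr2:87942682-87943626, 18 rows), of family MOR174, went from 76.1, 73.7, 79.4 and 77.8% in ND to 73.0, 71.5, 72.4 and 70.9% in NASH. The groups did not overlap, and all 9 CpGs were lower. The difference was -4.81 points (SE 1.18, limma adjusted p = 0.0462). At the gene without its extension it was -4.69 (limma adjusted p = 0.320), and on the logit scale the call was lost (limma adjusted p = 0.0526). Olfr1155 was called in 1 of 8 fits with a library left out.

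**Figure D5:**
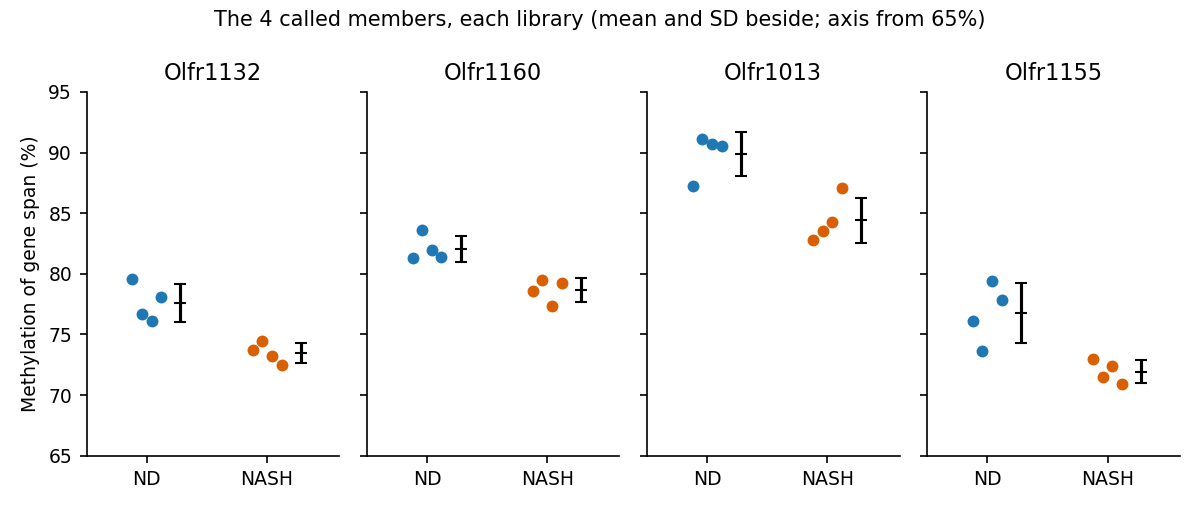
Methylation (%, axis from 65%) of the 4 called members in each ND (blue) and NASH (orange) library, with the mean and SD of 4 libraries beside the points. In each gene the 4 NASH libraries lie below the 4 ND libraries; in Olfr1013 the nearest are at 87.2% and 87.1%.

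The calls depended on which libraries were included. The number of members called was 0 without NASH library 1, 2 without NASH library 2, 8 without NASH library 3, 1 without NASH library 4, and 3, 6, 2 and 3 without ND libraries 1 to 4. Every member called in those fits was lower in NASH. Olfr1132 and Olfr1160 were each called in 5 of these 8 fits. Genes without their extension gave 5 called members, none of which was among the 4. Olfr1160 could not be tested there, as the gene alone has fewer than 6 rows.

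The other 3 members without overlap missed the threshold. Olfr1022 (chr2:85868594-85869541, 14 rows) was at 72.6, 67.5, 78.8 and 71.7% in ND and 65.5, 63.5, 65.3 and 63.8% in NASH, a difference of -8.12 points (limma adjusted p = 0.0559). Without doubtful zeros it was -12.2 (limma adjusted p = 0.00313). Olfr1145 and Olfr1040, named after their values were seen, differed by -5.72 and -4.51 points (limma adjusted p = 0.0591 and 0.208).

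Larger differences stood at spans with few rows and wide spread. Olfr1161 (chr2:88024702-88025713, 16 rows) had the largest decrease, -9.38 points, with ND libraries between 74.8% and 81.4% and NASH libraries between 64.0% and 75.6%, so that the groups overlapped (limma adjusted p = 0.0614). Without NASH library 3 the difference was -11.4 (limma adjusted p = 0.0286). Olfr1112 (chr2:87191689-87192645), at the limit of 6 rows, had -9.37 points, with 61.5% to 77.8% in ND and 54.6% to 64.2% in NASH. Olfr1164 and Olfr1053 had -7.62 and -5.99. None of these passed the test. Olfr259, among the 3 members with the widest spread in ND (SD 7.72), had -5.32. Olfr32, with 136 rows the second most, overlaps Olfr1270 and had -1.90 (82.9% ± 1.08 to 81.0% ± 1.39).

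No member passed the test with higher methylation in NASH. The 5 largest positive differences were those of Olfr1246 (4.64 points, 63.2% ± 2.61 to 67.9% ± 2.59), Olfr1274 (4.35), Olfr1265 (4.15), Olfr1247 (3.27) and Olfr1226 (2.99). Olfr1246 had the smallest limma adjusted p among them, 0.132. All 5 overlapped between groups, and they lay in the distal part of the cluster, more than 3 Mb from the first member.

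The families named here are some of 47, and the difference was below 0 in 73.9% of all members. All 9 genes of MOR185 and all 7 of MOR179 were below 0, with medians of -2.09 and -1.93 points and no called gene. MOR174 had 11 of 14 below 0, a median of -2.18 and 1 called gene, Olfr1155. MOR203, at the proximal edge, had 2 of 6 below 0 and a median of 0.51, and MOR192 had 0 of 3. Differences between families were not tested, and the families are too small to be told apart from the share over all members.

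At gene ends, from 1000 bases outside to 500 inside, no member differed by the test. There were 246 ends of 213 members with 6 or more rows, the 5′ end where the strand was known and both ends elsewhere. None was called by limma, and 22 had an unadjusted p under 0.05 (8.94%, against 11.9% of all ends), 18 of them lower. Of all 17681 ends only 0.0113% were called. The difference was below 0 at 175 member ends (71.1%), against 53.6% of all ends. Member ends had an ND median of 78.4%, where all ends had 23.0%; with every zero left out the medians were 79.1% and 68.0%.

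The member end with the smallest limma adjusted p, 0.101, was the 5′ end of Olfr1013, which went from 89.2% ± 0.569 to 81.3% ± 3.19 without overlap. The 5′ end of Olfr1182, on 6 rows, was at 57.5, 50.3, 67.4 and 66.6% in ND and at 75.7, 77.7, 79.5 and 82.2% in NASH. All NASH libraries were above all ND libraries there, but the difference of 18.3 points did not pass (limma adjusted p = 0.110). Ends without overlap numbered 10 lower and 2 higher in NASH, against backgrounds of 3.97% and 3.95%. Only 3 member 5′ ends were under 50% in ND, those of Olfr1158 (41.5% ± 1.79), Olfr1506 and Olfr1565.

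Windows of 100 kb measured the DNA between the genes too. Of 56 windows in the stretch 1 was called, lower in NASH, where 2.82% of all 18299 windows were called, 1.50% higher and 1.32% lower. It spans chr2:86100001-86200000 and holds 7 members, all of family MOR185. Its ND libraries were at 84.0, 83.0, 83.8 and 84.3% and its NASH libraries at 81.0, 79.9, 82.7 and 80.4%, without overlap. The difference was -2.80 points (SE 0.613, limma adjusted p = 0.0363). It was the most methylated window of the stretch.

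The difference was below 0 in 49 of the 56 windows (87.5%), against 76.1% of all windows, with medians of -1.23 and -0.582 points. NASH and ND were apart in 3 windows, all lower in NASH (background 8.11%), and in no window the other way (background 4.19%). Without single libraries the number of called windows was 0 without NASH libraries 1, 2 or 4 or ND libraries 1, 3 or 4, 2 without ND library 2, and 4 without NASH library 3. Windows with 5 or more members and those with fewer had ND medians of 74.5% and 74.4%.

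Genes that work with olfactory receptors were examined from 3 lists, too small to be told apart from the background of 8.50% of all spans, or 9.24% of those with 200 or more rows. Of the signal transduction list (the G protein Gnal, the adenylyl cyclase Adcy3 and their partners), 9 of 16 were measured and 1 was called, Grk3, a kinase that desensitises receptors, which fell from 81.4% ± 0.545 to 79.8% ± 0.189 (limma adjusted p = 0.0427). Arrb2, the gene of an arrestin, had the next smallest p, with 49.9% and 47.3% (limma adjusted p = 0.179). Of the list of receptor trafficking and gene choice, 12 of 16 were measured and none was called; Bptf, a chromatin remodeller, and Ldb1, which joins receptor enhancers, had an unadjusted p under 0.05 (limma adjusted p = 0.0651 and 0.157). Of the heterochromatin list, 8 of 11 were measured and none was called; Ehmt1 and Setdb1, both histone methyltransferases, had the smallest p (limma adjusted p = 0.0966 and 0.485), and only Ehmt1 was under 0.05 before adjustment.

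Other receptor genes and the neighbours were also compared with all spans. Of these, 2.25% were called among those with fewer than 50 rows and 6.59% among those with 50 or more but under 200. The share was 9.24% among those with 200 or more. Of 478 olfactory receptor genes outside the cluster, 2 were called higher and 9 called lower in NASH (2.30% in all). Of 131 other chemosensory receptor genes none was called higher and 2 were called lower (1.53%). None of the 9 other protein-coding genes inside the stretch was called, among them Ptprj, a receptor phosphatase, and Pramel6 and Pramel7, which lie between receptor genes. Their ND median was 68.9%, and 9 genes are too few to be told apart from the background.

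Hepatocyte and some immune marker genes differed between the groups. All 17 measured hepatocyte markers of 18 were called higher in NASH, with list means from 36.1% to 38.1% in ND libraries and from 47.8% to 52.9% in NASH libraries. Hepatocyte genes had the lowest mean of the 7 marker lists in both groups. Over all spans 5.58% were called higher and 2.92% called lower. Among neutrophil markers 5 of 10 were called lower, with list means from 73.5% to 76.1% in ND and from 70.5% to 72.6% in NASH. Called or not, the difference was below 0 in 7 of these 10. Macrophage markers had 1 of 11 called lower (69.5% to 71.5% in ND, 67.8% to 68.3% in NASH), and lymphocyte markers had 1 of 6 called higher and 2 called lower. Stellate cell markers had 1 of 9 called lower, and none of the 7 endothelial or the 7 cholangiocyte markers was called. The difference was below 0 in 10 of 11 macrophage, 5 of 6 lymphocyte and 8 of 9 stellate cell markers. It was below 0 in 5 of 7 endothelial and 5 of 7 cholangiocyte markers, against 58.6% of all spans. In bulk liver a shift in the share of cell types and a change of methylation within cells cannot be told apart, and the part of these shifts in the members' differences was not tested.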

How the data were processed

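Methylation was measured by whole-genome bisulfite sequencing of 8 liver libraries. The deposited table holds a percent of methylation for each cytosine in a CpG, as its values show. The submitters' processing notes name FastQC and mm10; which aligner and caller the authors ran is not given in the sources used here. ND columns were taken as the libraries titled WT because no other group remained.

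Table positions lay 1 base above the RefSeq position for all 35260 CpGs checked in promoter windows of chromosome 2, so 1 base was taken off. The table was read for 15 chromosomes (1 to 4, 5 up to 117098872, and 10 to 19), with 30729668 positions; 326824 positions on 85 contigs and 1 incomplete line were left out. The sex chromosomes and chromosomes 6 to 9 were not analysed here. No depth is given, so no interval or floor was computed.

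Gene positions, strands, MOR names and promoter windows came from RefSeq (GRCm38.p6). A span, a gene end or a window took the unweighted mean of its levels per library, with at least 6 rows (100 rows for windows). limma 3.58.1 (R 4.3.3), with a mean-dependent prior variance, compared 4 NASH with 4 ND libraries over all regions of a kind, and a region was called where its p, adjusted by Benjamini-Hochberg, was under 0.05. The script was tested on simulated data. Python 3.11.15, pandas 2.3.3 and numpy 2.4.6 were used.

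The members, lists and tests were chosen with earlier results of these data known. Genes named are the called members, the 5 largest differences each way, the 4 highest and 4 lowest ND levels, the 3 smallest p-values, the 2 with most rows, the 3 widest ND SDs and those at the limit of 6 rows; no member fell below that limit. List genes are named where called, and otherwise the 2 smallest p-values of a list. Alternatives were the logit scale, other treatments of zeros, a higher minimum of rows, no mean-dependent prior, no extension, a replicate block and leaving out each library.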

Additional observations from a re-analysis of the deposited data

Results flagged for a closer look

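Of 50 groups of 4 libraries checked (each named member in ND and in NASH, and the means over members), 5 had a library that stood apart from the other 3, with a gap, relative to the group's range, above Dixon's critical value; chance flags about 1 in 20 groups. In ND the lowest library of Olfr1013 was at 87.22%, the others between 90.5% and 91.1%. In NASH the lowest library of Olfr1226 was at 69.11%, the others between 75.3% and 76.2%. In ND the highest library of Olfr1565 was at 4.63% and the other 3 were at 0. In NASH the highest library of Olfr1019 was at 91.95%, the others between 86.4% and 87.2%; without it the difference was -3.92 points (limma adjusted p = 0.0150). The mean over member spans in NASH library 3 was 76.63%, the others between 74.3% and 74.6%.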

How the results depend on the processing

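The differences of the named members were recomputed under the alternatives, giving 377 values. Of these 330 kept their direction and their side of the threshold, 30 missed a threshold passed before, 8 passed one missed before and 9 reversed. All 30 belong to the 4 called members, since no other gene had passed. Apart from fits with a library left out, Olfr1132 was called in 5 of 8 alternatives, Olfr1160 in 4 of 7, Olfr1013 in 7 of 8 and Olfr1155 in 4 of 8. The number of called members was 4; it was 7 without rows at 0 in all libraries, an alternative added after the data were seen, 2 with every zero left out, and 0 to 8 with a library left out. Over all spans, 271 were called with every zero left out and 664 to 1217 with a library left out, in place of 1251. Called windows of the stretch numbered 0 with doubtful zeros left out or without the mean-dependent prior, 4 with every zero left out, and 0 to 4 with a library left out; over all windows the latter gave 128 to 1592 and every zero left out 2262, in place of 516. No member end was called under any alternative run, while over all ends 71 were called without rows at 0 in all libraries, 37 without the mean-dependent prior, 13 without doubtful zeros, 10 on the logit scale, and 0 to 4 with a library left out. The mean difference over members stayed below 0, from -1.93 to -0.923 points. In ND, member rows stood 5.66 points above rows between members and 2.71 above the rest of chromosome 2; the gaps were 4.03 and 1.81 without doubtful zeros, 2.44 and 0.0503 without rows at 0 in all libraries, and -1.10 and -3.99 with every zero left out. The difference reversed for Olfr1565 without NASH library 2 (range with a library left out -0.231 to 1.85), for Olfr1055 without ND library 3 (-7.30 to 0.623), for Olfr1184 without the extension (0.730), and for Olfr1115 without NASH library 1 or 4 or ND library 1 or 3 (-2.73 to 1.38), without doubtful zeros (1.55) and with every zero left out (0.595). The largest adjusted p of the called genes over the alternatives was 0.927 for Olfr1132, 0.250 for Olfr1160, 0.304 for Olfr1013 and 0.320 for Olfr1155. The cause was not tested. Without read counts no depth limit can be given.

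NASH and ND libraries share replicate numbers, but same-numbered libraries deviated together little over all spans (correlations of -0.0307, 0.0102, 0.103 and 0.00983). Of the libraries, 3 of 8 correlated best with their own number. The value of 0.103, for number 3, was the highest of any NASH and ND pair. Library 3 also had the highest mean over member spans in each group (77.7% in ND, 76.6% in NASH). With the replicate number as a block, 2 members were called, Olfr1013 and Olfr1186, of 539 spans in all; 2 windows of the stretch were called, of 871 in all; and no end was called.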
